A study of Mus musculus and Ochotona curzoniae and Rattus norvegicus with 18 samples.

Results

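The genes described here encode the enzymes that hydroxylate the alpha subunits of hypoxia-inducible factors (HIFs) and the ubiquitin ligase parts that act on the hydroxylated protein. There are 10 of them, chosen by symbol: EGLN1, EGLN2, EGLN3, P4HTM, HIF1AN, VHL, CUL2, RBX1, SIAH1 and SIAH2. SIAH1 and SIAH2 differ from this description, as ligases that act on the prolyl hydroxylases. All 10 genes were found in the pika tables, and 9 also had a mouse gene of the same symbol, out of 14421 genes in both tables. Mouse carries a pair of SIAH1 copies, Siah1a and Siah1b, under other symbols, so SIAH1 is described beside them and did not enter the count of 9. The series holds RNA-seq of cultured skin fibroblasts from 4 species with 3 libraries each. The 6 ChIP-seq samples of the series were not used. The groups compared are fibroblasts of the Tibetan pika (Ochotona curzoniae), for which the labels give no strain, and fibroblasts of the C57BL/6J mouse. No genotype change, age, drug or oxygen treatment is given for either group, and each is labelled as cells from epidermis that were grown in the same medium and lysed near confluency. The labels do not tell whether libraries of a species are separate animals, separate cultures or repeats of 1 culture, so the p-values measure the spread between libraries, which may be technical.

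When oxygen is present, the prolyl hydroxylases EGLN1, EGLN2 and EGLN3 hydroxylate prolines of HIF alpha, using iron and 2-oxoglutarate. VHL binds the hydroxylated protein as the receptor of a ligase built on the scaffold CUL2 with the RING subunit RBX1 and the adaptors elongin B and elongin C, and the protein is ubiquitinated and broken down. HIF1AN, also called FIH, hydroxylates an asparagine instead and blocks the binding of coactivators, while P4HTM is a prolyl hydroxylase of the endoplasmic reticulum membrane. SIAH1 and SIAH2 are RING ligases that mark the prolyl hydroxylases for breakdown. EGLN1 and EGLN3 are themselves known as genes that HIF raises in low oxygen.

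The deposited values are FPKM (fragments relative to gene model length and library total). They rose in whole steps, from which library totals of 7703576 to 8481030 reads in pika and 3663102 to 5758950 in mouse, and the reads and model length of each gene, were worked out. Each library was rescaled so that the genes in both tables sum to 1000000, which multiplied pika values by 2.15 to 2.16 and mouse values by 5.24 to 5.36, because the joined genes held 87.3% of the FPKM in each pika library but 37.0% to 38.3% in mouse. All levels below are on this scale, as rescaled FPKM, and every log2 fold change sets pika against mouse after adding 1 to each value, which understates the change of low genes. A call needs a limma-trend adjusted p under 0.05 together with a log2 fold change of at least 1 in size. Of the 9 fibroblast markers in both tables, all 9 reached 1 FPKM in pika and 8 in mouse, with summed levels of 10685 to 11053 and 12398 to 12743. The 6 keratinocyte markers summed to 25.5 to 27.8 in pika, where KRT5, KRT14, KRT10 and CDH1 were listed at 0, and to 47.3 to 53.0 in mouse, against the labelled epidermis. Endothelial markers summed to 0.706 to 1.60 in pika and 30.8 to 37.9 in mouse, leukocyte markers to 2.93 to 4.72 and 22.9 to 36.6, and melanocyte markers to 68.0 to 78.4 and 54.7 to 58.2, and the part of these cell types in the results was not tested. In bulk RNA, fewer cells of a type and less RNA per cell cannot be told apart, and neither can species, genome and gene annotation in this design.

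On rescaled FPKM, 5 of the 9 genes passed both limits of a call, 4 with more transcript in pika fibroblasts and 1 with less. CUL2, EGLN1, HIF1AN and P4HTM were called higher, EGLN3 was called lower, and EGLN2, RBX1, SIAH2 and VHL were not called. The calls of CUL2 and P4HTM held under every alternative run. EGLN1 lost its call with median-of-ratios and upper-quartile scaling, and HIF1AN without division by gene length. EGLN3 lost its call without rescaling and without division by gene length. EGLN3 and P4HTM were tested only because the species where each was higher reached a mean of 1 FPKM. Over all 10351 tested genes 28.7% were called higher and 23.5% lower, 52.2% in all, so 5 calls among 9 are near the background. The median log2 fold change was 0.50 over the 9 genes and 0.21 over all tested genes. In 8 of the 9 genes the pika and mouse libraries did not overlap, as in 89% of all tested genes. Without rescaling the median of all genes moved from 0.21 to 1.29, and the fraction of higher calls among all calls moved from 55.0% to 84.5%. On that scale 7 of the 9 genes were called higher and 0 lower by limma-trend (0 lower also at an unadjusted p under 0.05), against a background of 58.3% called higher and 10.7% lower, 69% in all.

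**Figure D1:**
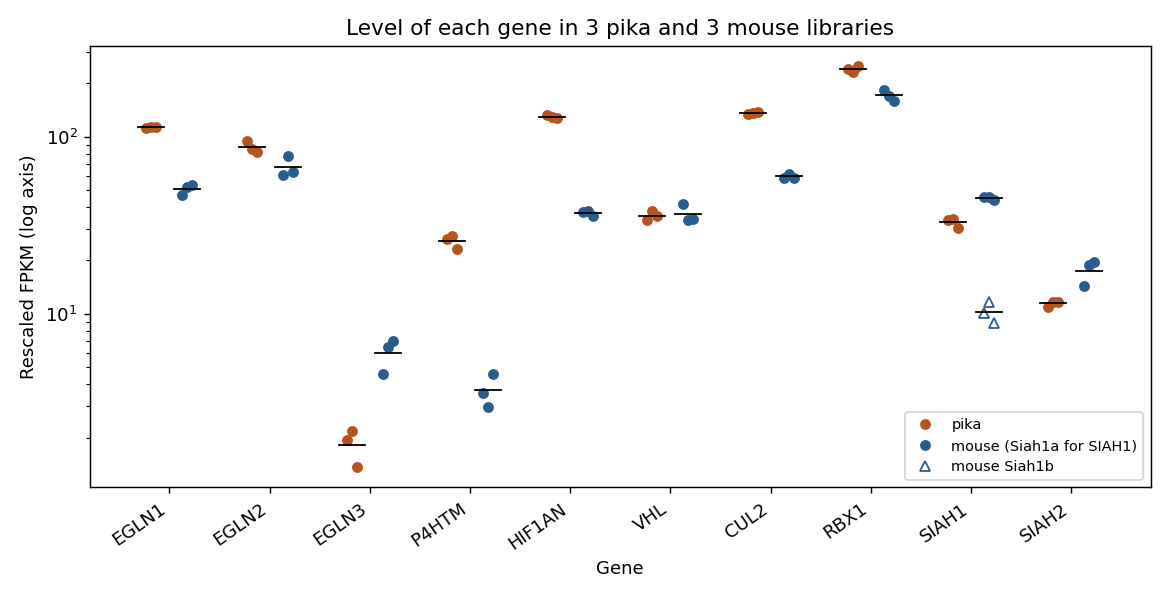
Rescaled FPKM (log axis) of the 10 genes, with 1 point per library (3 pika in orange, 3 mouse in blue) and a bar at the mean. For SIAH1 the filled mouse points are Siah1a and the open triangles Siah1b. The pika points lie above the mouse points for EGLN1, EGLN2, P4HTM, HIF1AN, CUL2 and RBX1, below them for EGLN3 and SIAH2, and among them for VHL.

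The 3 EGLN genes differed from each other in how they stood between the species. EGLN1, the main oxygen-sensing hydroxylase of most cells, lies in mouse on chromosome 8 from 124908587 to 124949254 (GRCm38.p6). It was at 112, 113 and 114 in the pika libraries and at 46.9, 52.3 and 53.2 in the mouse libraries. Every pika library was above every mouse library, and the means differed 2.23-fold, with a log2 fold change of 1.14 (SE 0.06, limma-trend adjusted p = 8.3e-08). These levels rested on 729 to 804 reads per pika library and 130 to 181 per mouse library. The call depended on the scale, since the log2 fold change was 0.97 with median-of-ratios scaling and 0.96 with upper-quartile scaling, just under the minimum.

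EGLN2, which is found mainly in the nucleus, lies on mouse chromosome 7 from 27158658 to 27166802. It was at 95.1, 85.6 and 82.0 in pika and at 60.5, 78.0 and 63.6 in mouse. The groups did not overlap, but the highest mouse library came close to the lowest pika library, and the log2 fold change of 0.38 (SE 0.10, limma-trend adjusted p = 0.0048) stayed under the fold minimum. EGLN2 was called higher without rescaling (1.61).

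EGLN3, on mouse chromosome 12 from 54178981 to 54203874, was the lowest of the 10 genes in pika. It was at 1.93, 2.17 and 1.36 in pika and at 4.55, 6.52 and 7.06 in mouse. Each pika library was below each mouse library, with a log2 fold change of -1.31 (SE 0.20, limma-trend adjusted p = 0.00016). The gene had 42 reads over 3 libraries in each species, 11 to 16 per pika library and 12 to 17 per mouse library. These were the fewest of the 10 genes in pika, while in mouse P4HTM had fewer, at 39. The call was lost without rescaling (-0.21) and without division by gene length (-0.78).

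Because EGLN1 and EGLN3 answer to HIF, and the series set out to map the binding of the HIF subunit Epas1, the mouse sequences just upstream of the 3 EGLN start sites are shown. They are the 250 bases before each annotated start (RefSeq, GRCm38.p6), 5′ to 3′ on the gene's strand, with the core of the HIF binding site (ACGTG or GCGTG, searched on both strands) in capitals. All 3 genes are on the minus strand: Egln1 at chr8:124949255-124949504, Egln2 at chr7:27166803-27167052 (the first of 2 listed starts) and Egln3 at chr12:54203875-54204124.
Egln1: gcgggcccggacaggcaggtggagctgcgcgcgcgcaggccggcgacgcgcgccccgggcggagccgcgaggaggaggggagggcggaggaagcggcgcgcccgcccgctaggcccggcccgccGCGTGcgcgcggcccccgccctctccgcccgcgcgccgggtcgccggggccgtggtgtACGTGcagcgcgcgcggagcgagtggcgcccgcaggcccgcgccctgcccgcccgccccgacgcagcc
Egln2: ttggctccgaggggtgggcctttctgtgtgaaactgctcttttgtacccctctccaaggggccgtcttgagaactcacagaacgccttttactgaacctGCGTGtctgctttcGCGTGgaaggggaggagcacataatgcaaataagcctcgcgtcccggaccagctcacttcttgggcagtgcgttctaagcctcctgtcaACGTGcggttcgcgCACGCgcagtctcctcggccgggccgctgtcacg
Egln3: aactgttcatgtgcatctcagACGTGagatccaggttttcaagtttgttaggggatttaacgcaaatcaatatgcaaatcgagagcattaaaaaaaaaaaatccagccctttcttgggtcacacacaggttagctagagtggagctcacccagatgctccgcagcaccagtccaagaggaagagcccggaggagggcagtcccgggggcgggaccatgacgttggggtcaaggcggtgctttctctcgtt

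The Egln1 window held 1 ACGTG, whose first base is 68 bases before the start, and 1 GCGTG at 126. The Egln2 window held 1 ACGTG at 48 and 3 GCGTG matches, and the Egln3 window held 1 ACGTG, far upstream at 229. Of 32851 upstream windows of this length, 16.6% held ACGTG and 28.2% held GCGTG. GC content was 86.0% in the Egln1 window, 59.2% in Egln2 and 50.8% in Egln3. Neither core was found in the windows of P4htm, Hif1an and Vhl, while Rbx1 and Siah1a held 2 GCGTG matches each. The P4htm window (chr9:108597613-108597862) lies inside the gene span given below, so the sequence upstream of that span was not searched. Siah1b held 3 ACGTG and 1 GCGTG before its first listed start, more ACGTG than any EGLN window, and 1 GCGTG before its other start. A match is only a run of letters, and no binding was measured here. CUL2 and SIAH2 are not in this search.

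**Figure D2:**
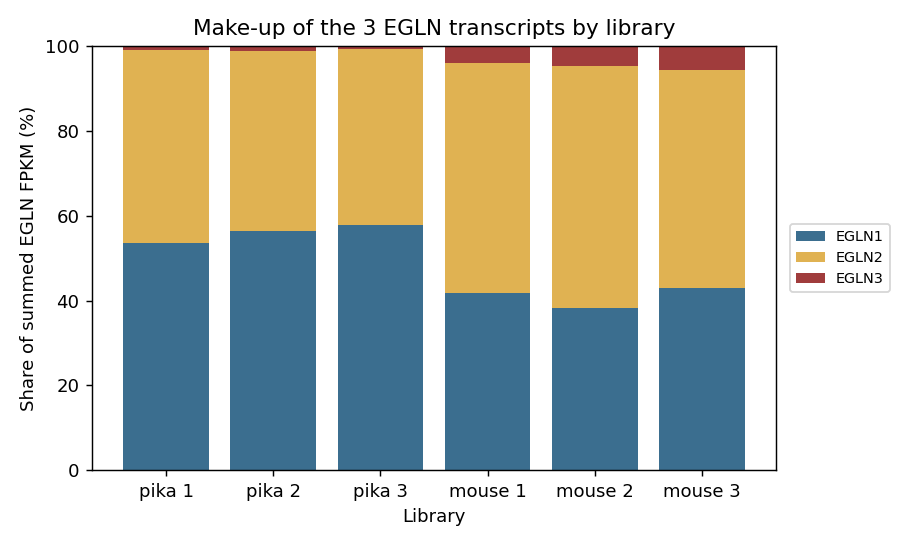
Share of EGLN1, EGLN2 and EGLN3 in the summed FPKM of the 3 genes, 1 stacked bar per library, in percent. EGLN1 takes 53.5% to 57.7% in the pika libraries and 38.2% to 43.0% in the mouse libraries, and EGLN3 is visible mainly in mouse.

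The balance among the EGLN transcripts also differed, a quantity that no rescaling of a library can move. EGLN1 made up 55.9% ± 2.15 of the summed EGLN FPKM in pika and 41.0% ± 2.48 in mouse (SD, n = 3), and EGLN2 43.2% ± 2.07 and 54.1% ± 2.84. In all 3 pika libraries EGLN1 was above EGLN2, at 1.18, 1.32 and 1.39 times its level, and in all 3 mouse libraries it was below, at 0.775, 0.671 and 0.837 times. The log2 ratio differed by 0.77 between the species (two-sided exact permutation test p = 0.10, the smallest value 3 libraries against 3 can give), and by 0.67 on reads not divided by length. EGLN3 was 0.896% ± 0.196 of the EGLN total in pika and 4.84% ± 0.822 in mouse. EGLN1 stood 58.0, 52.3 and 83.9 times above EGLN3 in the pika libraries and 10.3, 8.02 and 7.54 times in mouse. That log2 ratio differed by 2.89 (exact permutation p = 0.10), and by 2.26 on undivided reads. The difference between the species kept its direction for both EGLN ratios without gene length and with any single library left out. The order within mouse did not, since on undivided reads EGLN1 and EGLN2 were nearly level there (a mean ratio of 0.973), and EGLN1 was above EGLN2 in mouse replicate 3, with 49.3% against 45.9% of the EGLN reads. Of the 5 within-library ratios computed, the exact permutation test gave p = 0.10 for 4 and p = 0.50 for 1, and none can pass 0.05 before or after adjustment.

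On rescaled FPKM, P4HTM differed most of the 9 genes. In mouse it lies on chromosome 9 from 108578862 to 108598195. It was at 26.3, 27.5 and 23.2 in pika and at 3.59, 2.97 and 4.55 in mouse. The lowest pika library was several times above the highest mouse library, the means differed 6.93-fold, and the log2 fold change was 2.51 (SE 0.15, limma-trend adjusted p = 2.1e-07). The mouse level rested on 8 to 16 reads per library against 135 to 147 in pika. The log2 fold change was 2.92 without rescaling and 2.18 without division by gene length, and P4HTM was called higher under every alternative run. It was not the largest change on those scales, where HIF1AN (2.94) and VHL (-2.31) respectively were larger in size. Set against all joined genes of its own library, P4HTM stood at percentiles of 31.2 to 34.3 in mouse and 54.7 to 57.9 in pika.

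HIF1AN, the asparaginyl hydroxylase, lies on mouse chromosome 19 from 44562854 to 44576274. It was at 132, 129.9 and 128 in pika and at 37.3, 37.9 and 35.6 in mouse. The 2 groups were far apart against a small spread, with a log2 fold change of 1.79 (SE 0.05, limma-trend adjusted p = 1.5e-09). The mouse model was 6606 bases long and the pika model 1361, a factor of 4.85. Without division by length the log2 fold change was 0.57 and the call was lost. HIF1AN was above EGLN1 in all 3 pika libraries (1.18, 1.15 and 1.12 times) and below it in all 3 mouse libraries (0.797, 0.724 and 0.670 times). This log2 ratio differed by 0.66 between species (exact permutation p = 0.10), but by -0.62 on undivided reads, so the order of these hydroxylases turns with gene length.

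**Figure D3:**
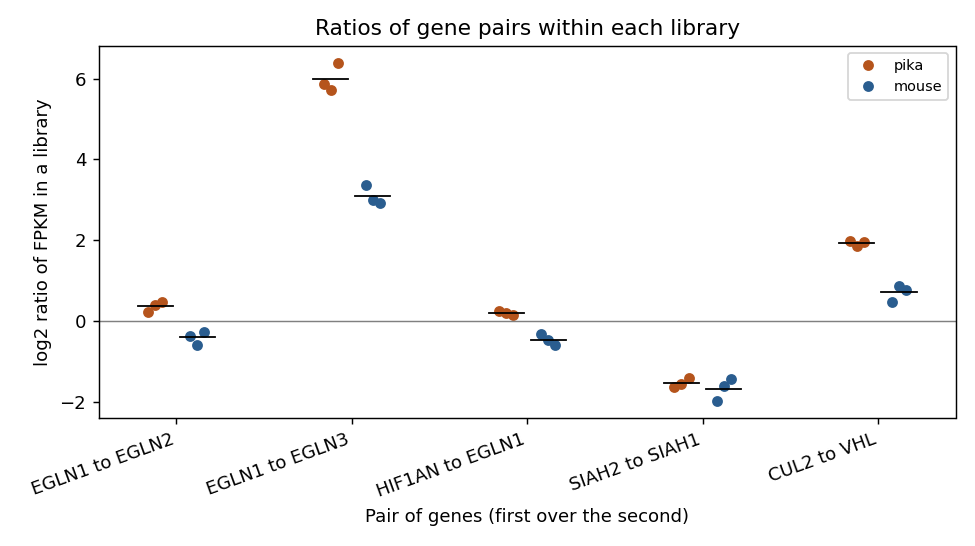
Log2 ratio of FPKM for 5 gene pairs, computed within each library, with 1 point per library (pika orange, mouse blue) and a bar at the mean. The species are apart for 4 pairs and overlap for SIAH2 to SIAH1. The EGLN1 to EGLN2 and HIF1AN to EGLN1 ratios lie above 0 in pika and below 0 in mouse.

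The ligase parts did not move together. CUL2, the scaffold, lies on mouse chromosome 18 from 3382970 to 3436700. It was at 134, 137 and 138 in pika and at 58.7, 61.9 and 58.8 in mouse. The groups did not overlap, and the means differed 2.28-fold. The log2 fold change was 1.18 (SE 0.05, limma-trend adjusted p = 1.2e-08), 2.39 without rescaling and 1.59 without division by length. It was 1.00422 with median-of-ratios scaling and 1.00035 with upper-quartile scaling, so the call only just held there. The CUL2 levels rested on 1318 to 1459 reads per pika library and 177 to 261 per mouse library.

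VHL, the substrate receptor, on mouse chromosome 6 from 113623994 to 113631634, was at 33.9, 37.9 and 35.5 in pika and at 41.9, 33.8 and 34.3 in mouse. The libraries overlapped, and the log2 fold change was -0.03 with a 95% confidence interval of -0.25 to 0.19 (limma-trend adjusted p = 0.78). This closeness belongs to the chosen scale and to the gene models. The pika VHL model was 258 bases long and held 104 reads over the 3 libraries, while the mouse model was 2997 bases long and held 298 reads. VHL was called higher without rescaling (1.15) and lower without division by length (-2.31).

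RBX1, the RING subunit that brings in the ubiquitin-carrying enzyme, on mouse chromosome 15 from 81466316 to 81476369, had the highest level of the 10 genes in each species. It was at 242, 232 and 251 in pika and at 184, 169.5 and 159.7 in mouse. Pika libraries were all above mouse libraries, by a log2 fold change of 0.50 (SE 0.06, limma-trend adjusted p = 2.0e-05), which is under the minimum. The pika model was 141 bases long against 1655 in mouse, a factor of 11.7, and without division by length the log2 fold change was -1.95, a call in the opposite direction. A mouse pseudogene of RBX1, Rbx1-ps, was at 2.66, 0 and 4.51 deposited FPKM, against 34.3, 32.0 and 30.5 for the gene, and reads may have been split between them. The CUL2 to VHL ratio was 3.97, 3.62 and 3.89 in the pika libraries and 1.40, 1.83 and 1.71 in mouse. Its log2 value differed by 1.22 (exact permutation p = 0.10), and by 4.14 on undivided reads. The mouse model was longer by a factor of 11.6 for VHL but 1.54 for CUL2. The size of this difference therefore depends on the gene models, and the larger value is not stronger support.

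The SIAH ligases were not called. SIAH1 was at 33.6, 34.5 and 30.7 in pika. In mouse, Siah1a (chromosome 8 from 86720454 to 86746006) was at 45.9, 45.6 and 43.8, and Siah1b (chromosome X from 164070703 to 164076493) was at 10.1, 11.6 and 8.87. Each pika library was thus below each mouse library of Siah1a and above each of Siah1b. Set against the sum of the copies, chosen after the values were seen, SIAH1 had a log2 fold change of -0.73 (SE 0.07, limma-trend adjusted p = 8.6e-06), and against Siah1a alone -0.44. The models of SIAH1 and Siah1a were of nearly equal length, 2000 and 1968 bases. The copies are similar in sequence, so their reads can be split in an unknown way.

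SIAH2, on mouse chromosome 3 from 58674949 to 58692439, was at 10.97, 11.7 and 11.7 in pika and at 14.3, 18.8 and 19.5 in mouse. Pika libraries were below mouse libraries, with a log2 fold change of -0.56 (SE 0.14, limma-trend adjusted p = 0.0032), under the minimum. The sign turned without rescaling (0.56). The SIAH2 to SIAH1 ratio, with the mouse copies summed, was 0.326, 0.340 and 0.380 in pika and 0.255, 0.329 and 0.371 in mouse, so that the libraries overlapped (exact permutation p = 0.50).

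Levels per gene length can be ordered within a species, but the order rests on the gene models. RBX1, first in pika, had 385 reads there on a 141-base model, against 4140 reads for CUL2. In pika the order was RBX1, CUL2, HIF1AN, EGLN1, EGLN2, VHL, SIAH1, P4HTM, SIAH2 and EGLN3, and only VHL and SIAH1 overlapped among neighbours. In mouse it was RBX1, EGLN2, CUL2, EGLN1, Siah1a, HIF1AN, VHL, SIAH2, Siah1b, EGLN3 and P4HTM. There EGLN2 overlapped CUL2, HIF1AN overlapped VHL, and EGLN3 overlapped P4HTM. The percentile of a gene within its library is not moved by rescaling the library, but gene model length enters it. For EGLN1 it was 72.2 to 74.8 in mouse and 86.0 to 86.3 in pika. HIF1AN stood at 65.4 to 66.9 in mouse and 87.9 to 88.5 in pika, and CUL2 at 76.9 to 78.1 and 88.6 to 89.0. VHL stood at 64.1 to 69.6 in mouse and 61.8 to 64.0 in pika, and EGLN3 at 34.7 to 38.4 and 31.7 to 34.0.

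**Figure D4:**
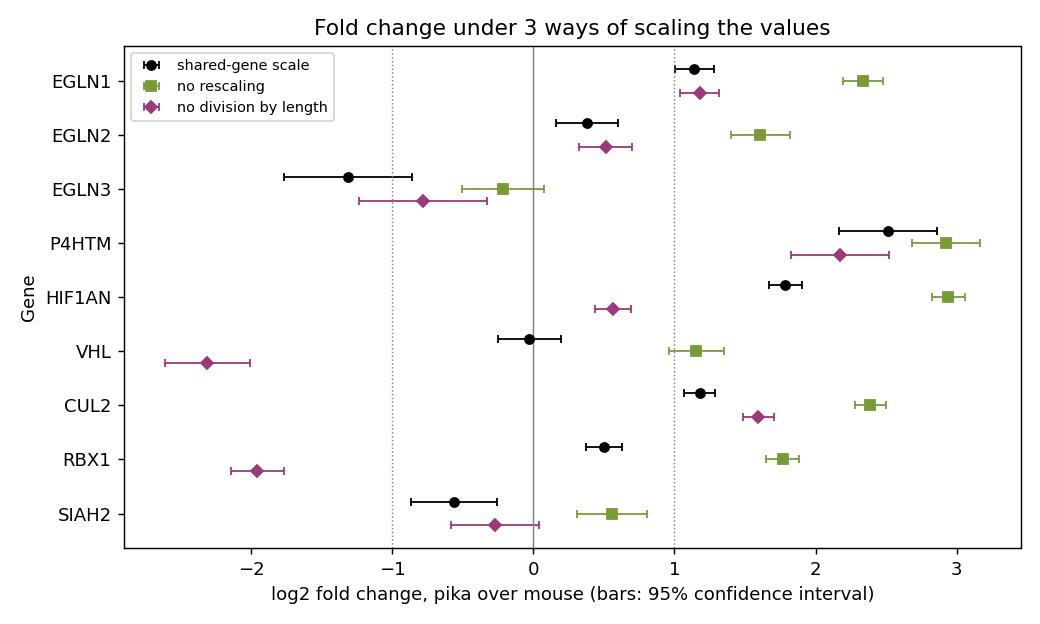
Log2 fold change of pika over mouse for the 9 genes joined by symbol, with 95% confidence intervals from limma-trend, on the shared-gene scale (circles), without rescaling (squares) and without division by gene length (diamonds). Dotted lines mark the fold minimum of 1 in each direction. EGLN1, CUL2 and P4HTM lie beyond the upper line in all 3, while VHL and RBX1 turn from higher without rescaling to lower without division by length.

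Gene model length separated the members. The mouse model was longer than the pika model by a median factor of 2.22 over the 11142 genes with both lengths. EGLN1 (a factor of 2.00), EGLN2 (1.87), CUL2 (1.54), SIAH2 (1.66), EGLN3 (1.29) and P4HTM (2.62) lay between 1.29 and 2.62, HIF1AN (4.85) was above that median, and VHL (11.6) and RBX1 (11.7) were far above. Without division by length 3 of the 9 genes (CUL2, EGLN1 and P4HTM) were called higher and 2 (VHL and RBX1) lower, against 25.5% and 26.4%, 52% in all, of the 9949 genes that could be fitted so. A recovered length is the smallest that makes the reads of all libraries whole, so it and the reads may be the true values divided by the same whole number. A short model also collects fewer reads, so undivided reads depend on length too.

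The rest of the pathway was read from a list of 37 genes, of which 35 were in both tables and 34 were tested. On the shared-gene scale 12 were called higher, 7 lower and 15 not called, near the backgrounds of 28.7% and 23.5%, with a median log2 fold change of 0.51 against 0.21 over all tested genes. Among the HIF subunits, EPAS1 was called higher (log2 fold change 2.34), ARNT2, a partner of HIF alpha, was called lower (-2.76), and HIF1A (0.26) and ARNT (0.66) were not called. HIF3A was too low to test.

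Of 15 tested genes of the VHL complex and of cullin handling, 7 were called higher, 2 lower and 6 not called (median 0.77), against 28.7% and 23.5% of all tested genes. Without division by length the counts were 3 higher and 4 lower (median 0.24), against 25.5% and 26.4% of all genes on that scale. NAE1, a subunit of the enzyme that activates NEDD8, the small modifier that switches cullins on, had a pika level of 113 ± 3.09 and a mouse level of 18.3 ± 1.74 (SD, n = 3), with a log2 fold change of 2.56. UBE2F (1.97), a carrier of NEDD8, and DCUN1D1 (1.85), which helps to attach it to cullins, were also called higher. CAND1 (1.44), which exchanges the substrate receptors of cullins, and COPS5 (1.35), the COP9 signalosome subunit that takes NEDD8 off again, were called higher too. So were the ubiquitin carriers UBE2D1 (1.18) and UBE2D3 (1.23). NEDD8 itself was not called (-0.87), nor were its carrier UBE2M (0.77) and the related scaffold CUL5 (0.48). With median-of-ratios (-1.04) and upper-quartile scaling (-1.05) NEDD8 was called lower, and on undivided reads its sign turned (0.24).

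On rescaled FPKM the elongins went apart from each other and were not called higher as CUL2 was. ELOB, elongin B, had a pika level of 133 ± 6.24 against 679.8 ± 40.1 for mouse (a log2 difference of -2.34, called lower), and ELOC, elongin C, was at 183 ± 5.32 and 124 ± 8.61 (0.56, not called). RNF7, the RING subunit that pairs with CUL5 as RBX1 pairs with CUL2, was at 11.7 ± 3.97 and 132 ± 9.11 (-3.43), with 49 reads in pika. ELOB, ELOC and RACK1 were joined through the older names that the pika tables use. The pika models of ELOB, ELOC and RNF7 were 258, 224 and 372 bases long, against 508, 3026 and 1328 in mouse. ELOC was called lower without division by length (-2.10), where ELOB (-2.23) and RNF7 (-3.82) were also lower. The parting of the elongins thus rests on the gene models.

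Among 15 partners and regulators of the hydroxylases, of VHL or of HIF alpha stability, 4 were called higher, 4 lower and 7 not called (median -0.19), near the 28.7% and 23.5% of all tested genes. Without division by length 1 was called higher and 3 lower, against 25.5% and 26.4% of all genes on that scale. RACK1, which can steer HIF1A to a ligase without oxygen sensing, was called higher (1.80), as were the HIF-related factor SART1 (1.57), ING4 (1.44), which binds EGLN1, and the deubiquitinase USP33 (1.22). The deubiquitinase UCHL1 (-3.65), LIMD1 (-1.58), a scaffold that holds EGLN1 and VHL together, its relative WTIP (-1.25) and WSB1 (-1.32), a ligase part that acts on VHL, were called lower. UCHL1 rested on 10 pika reads.

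Without division by length 5 of the 34 pathway genes were called higher and 8 lower, against 25.5% and 26.4% of all genes on that scale. Without rescaling 24 were called higher and 4 lower, against 58.3% and 10.7% of all genes. Called in the same direction on all 3 of these scales were EPAS1, NAE1, DCUN1D1 and CAND1 (higher) and ARNT2, ELOB, RNF7 and UCHL1 (lower). RACK1 (-0.40), SART1 (0.04), UBE2F (0.16) and COPS5 (0.69) were not called on undivided reads, and UBE2D3 was called lower there (-1.03), with a pika model of 2462 bases and a mouse model of 24499.

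**Figure D5:**
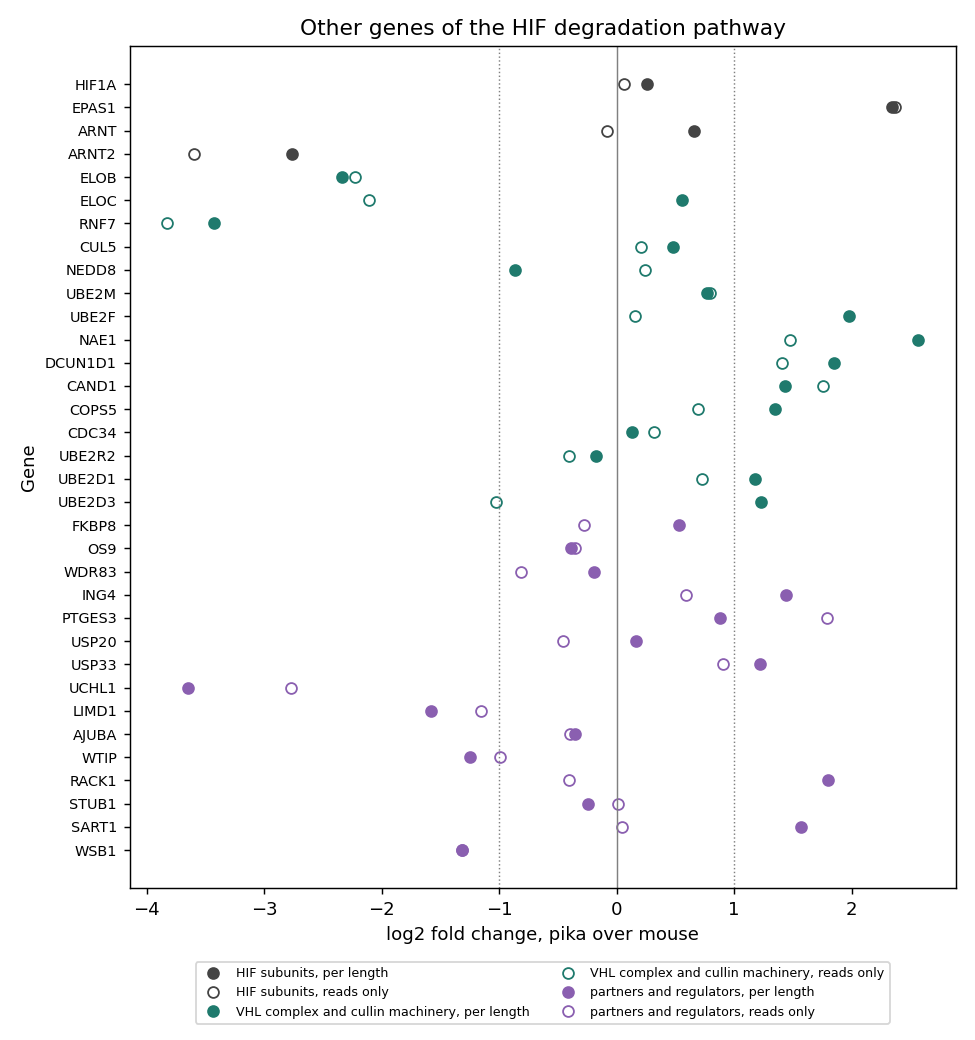
Log2 fold change of pika over mouse for the 34 tested genes of the wider pathway, on the shared-gene scale (filled) and without division by gene length (open), coloured by group. Dotted lines mark the fold minimum. EPAS1, NAE1, DCUN1D1 and CAND1 have both points beyond the upper line, and ARNT2, ELOB, RNF7, UCHL1, LIMD1 and WSB1 beyond the lower line.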

How the data were processed

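RNA-seq tables of 3 pika and 3 mouse libraries were used. Per the file headers each holds 1 FPKM value per gene, which the authors computed before deposition. CASAVA 1.9, STAR 2.6.1a, featureCounts and edgeR 3.28.1, with the mouse build GRCm38 for every species, are listed without roles in the submitters' processing notes. The annotations are not given in the sources used here. The 6 rat and rabbit libraries were left out because no file or table used here gives symbols for their identifiers.

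Mouse identifiers got symbols from a gene name table (49326 of 49585 rows), and symbols found in each table exactly 1 time joined 14418 genes, with 3 more joined by older names. Library totals, reads and model lengths were recovered from the FPKM steps (tolerance 0.0002 reads), and the reads came to 95.7% to 96.4% of the totals. Genes with a mean of 1 FPKM or more in either species were fitted on log2(rescaled FPKM + 1) by limma-trend, from limma 3.58.1 under R 4.3.3, two-sided, with Benjamini-Hochberg adjustment over all 10351 genes. The fit uses 6 libraries. EGLN3 passed the filter of 1 FPKM only through mouse, with a mean of 1.14 against 0.843 in pika. P4HTM passed it only through pika, with 11.9 against 0.699 in mouse. Each was thus let in by the species where it was higher, which favours the direction found. With no filter on low values both kept their calls. Ratios within libraries were compared by exact permutation (scipy 1.17.1). All 10 members, and any gene of the pathway list, could be named. Members and lists were chosen with earlier results of these data known.

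Alternatives were 3 other scalings, undivided reads, a smaller pseudocount, other filters, limma without trend, a replicate block and leaving out each library. The scripts were tested on simulated libraries with known changes and lengths. Mean chi-square per gene between libraries of a species was 1.35 to 2.95, where counting noise gives about 1, so no pair agreed within counting noise; repeats of 1 culture are not told apart by this.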

Additional observations from a re-analysis of the deposited data

How the results depend on the processing

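Of 134 refits of single fold changes of the 9 genes, 121 kept their direction and their side of the threshold, among them 52 of the 54 that left out a library. The other filters, limma without trend and the replicate block cannot move a fold change, only its p-value. The count of 121 therefore includes refits whose direction was fixed in advance. Without rescaling 7 of the genes were called higher and 0 lower, VHL turned to 1.15 and SIAH2 to 0.56, and 24 pathway genes were called higher and 4 lower, where 58.3% of all genes were called higher and 10.7% lower. Without division by length (25.5% and 26.4% of all genes) 2 members were called lower, 5 pathway genes were called higher, RBX1 turned to -1.95, the HIF1AN to EGLN1 log2 ratio to -0.62 and the SIAH2 to SIAH1 log2 ratio to -0.58. That last ratio also turned with mouse Siah1a alone (-0.15), an alternative chosen after the values were seen. With a filter at 5 FPKM EGLN3 was not tested, so 0 members were called lower by limma-trend (1, SIAH2, was lower at an unadjusted p under 0.05). Of all 8516 genes tested with that filter, 1586 were called lower. Leaving out each library in turn gave log2 fold changes of -0.084 to 0.068 for VHL and differences of -0.0054 to 0.26 for the SIAH2 to SIAH1 log2 ratio, which was 0.15 with all libraries and turned only without mouse replicate 1. With the replicate number as a block, 4 members were called higher and 1 lower and 5408 of all genes were called against 5406 without it. The numbers pair nothing, since correlations of same-numbered libraries were -0.01 to 0.009. Except where the alternative removed a gene, the cause was not tested. Depth limits EGLN3 in both species and P4HTM in mouse the most.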
